A study of Rattus norvegicus with 6 samples.

Results

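The genes described here are the drug- and lipid-oxidising enzymes of the rat ileum: the cytochrome P450 families 1 to 4 (Cyp1 to Cyp4) and the flavin-containing monooxygenases (Fmo). They were chosen by name, as every gene whose array row carries a single symbol of the form Cyp1 to Cyp4 followed by a letter, or Fmo followed by a digit. This gave 56 of the 14506 genes measured, namely 3 of family Cyp1, 31 of Cyp2, 5 of Cyp3, 12 of Cyp4 and 5 Fmo genes, each with 1 row. One of the 31, Cyp2s1-ps1, is a pseudogene. The ileum, the last stretch of the small intestine, came from 3 Zucker fa/fa rats with a duodenum-jejunum bypass (DJB) and 3 Zucker fa/fa rats with a sham operation. All 6 rats carried the fa/fa genotype, a leptin receptor defect that makes the rats obese, were 20 weeks old at surgery and were killed 14 days after it, so that there is no lean or unoperated group. In DJB rats the distal jejunum was joined to the first stub of the duodenum and the limb that carries bile and pancreatic juice was joined further down, and in sham rats every cut was closed again along the normal course of the gut. Each rat gave 1 array (Affymetrix rat gene 1.0 ST), read as RMA-normalised log2 levels.

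A P450 is a haem enzyme of the endoplasmic reticulum that inserts an oxygen atom into its substrate, with electrons passed on from NADPH by the reductase Por. Families 1 to 3 are best known for oxidising drugs and foreign compounds, and family 4 for hydroxylating fatty acids and eicosanoids. An Fmo carries a flavin instead of haem, takes electrons from NADPH itself and oxidises nitrogen and sulfur atoms. In the small intestine these enzymes sit mainly in the absorptive cells (enterocytes), where they meet drugs and dietary compounds before the liver does.

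After the bypass, 1 of the 56 genes passed the test: Fmo4 fell 2.05-fold. A further 7 genes were at least 1.5-fold lower with no overlap between the groups but missed the adjusted threshold: the phenobarbital-inducible Cyp2b1 and Cyp2b2 (4.88-fold and 2.94-fold lower), the fatty acid hydroxylases Cyp4b1 and Cyp4f1 (2.82-fold and 1.69-fold), the arachidonic acid epoxygenase Cyp2j4 (1.77-fold), Cyp2s1 (1.71-fold) and Fmo1 (1.64-fold). The reverse was seen for 1 gene, Cyp4f40, which was 1.51-fold higher and also missed the threshold. Most other members showed small differences, and 34 of the 56 had a mean log2 level under 6, where array signals of a row are dim and a fold may be understated.

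**Figure D1:**
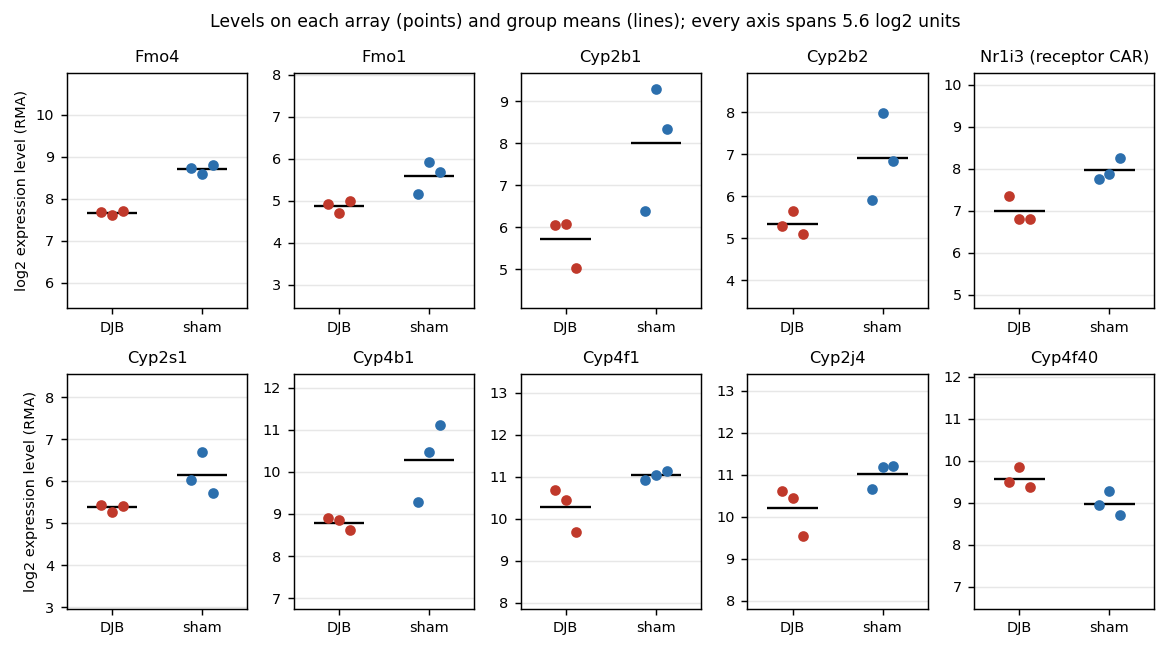
Log2 expression level (RMA) of 9 Cyp and Fmo genes and of the receptor gene Nr1i3 on each array, with points for the 3 DJB and 3 sham arrays, lines for the group means and the same span on every vertical axis. Fmo4 has the tightest groups, while the sham arrays of Cyp2b1 spread between 6.38 and 9.29.

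The test was limma's moderated fit of DJB minus sham over all 14506 genes, two-sided, with Benjamini-Hochberg adjustment over all of them and a threshold of 0.05. A gene is said to have fallen or risen only where it passed that test. Of all genes tested, 0.379% fell and 0.393% rose (0.772% in either direction), and of the members 1 fell and 0 rose. At an unadjusted p under 0.05, 14 members were lower and 3 higher, where 4.45% of all genes were lower and 9.82% higher. The array values carry no read depth, and 3 arrays per group limit the precision. An exact permutation test of 3 against 3 arrays cannot go below p = 0.1, so that any single member with groups that do not overlap has exactly that p, two-sided. The RNA is that of a whole tissue piece, in which fewer cells of a type and less RNA per cell cannot be told apart.

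Counted by the arrays themselves, 11 of the 56 members had all 3 DJB values below all 3 sham values (19.6%, against 6.56% of all genes), and 3 had them above (5.36%, against 14.5% of all genes). With a difference of at least 1.5-fold as well, 8 members were lower (14.3%, against 0.800% of all genes) and 1 was higher (1.79%, against 0.620%). Among the 22 members with a mean of at least 6, the lower ones were 6 (27.3%, against 1.18% of the 9074 genes at that level) and the higher one was 1, against 0.904%. Of these 6, Cyp2b1 and Cyp2b2 reached that level only through their sham arrays. Their means were 5.719 and 5.355 in DJB rats and 8.005 and 6.912 in sham rats. All figures for the 22 brighter members include both genes and so lean in part on the group where they were high. Without a minimum fold, 6 of these 22 were lower with no overlap, against 8.97% of the genes at that level, and 2 were higher, against 17.7%. The members' median change was -0.07 on the log2 scale, and -0.15 over the 22 brighter ones, where that of all genes was 0.05 and that of all brighter genes 0.04. The split of 8 lower and 1 higher became 9 and 0 when quantile normalisation was repeated, and 10 and 0 with arrays centred on their medians. Under both, Cyp4f40 (0.58 and 0.57) lay just under 1.5-fold and Cyp2d2 joined the lower genes, as did Cyp3a18 with centred arrays. The shares of all genes were not counted under these 2 scalings. No test was made of these shares, since the genes were grouped with results of the same arrays known.

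**Figure D2:**
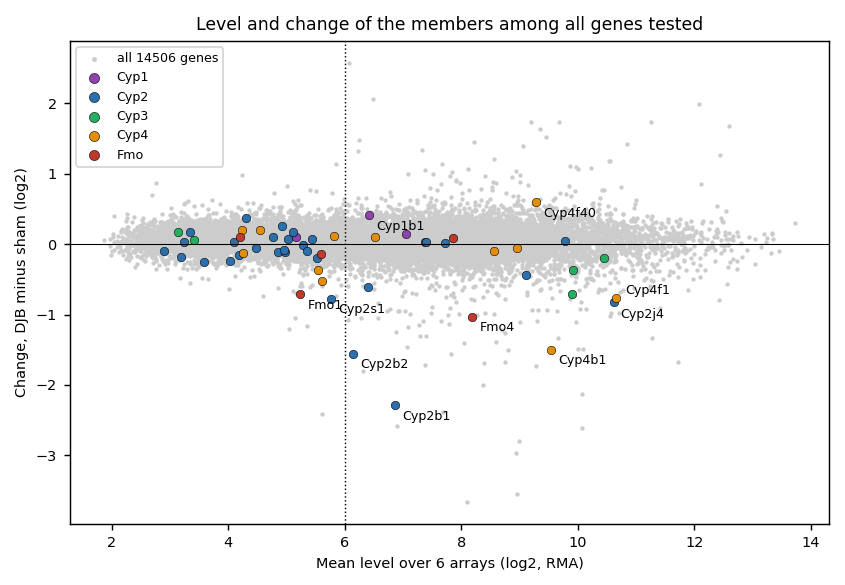
Mean log2 level over the 6 arrays (horizontal) against the log2 change, DJB minus sham (vertical), for all 14506 genes in grey and the 56 members in colour by family, with a dotted line at a level of 6. Cyp2b1, Cyp2b2, Cyp4b1 and Fmo4 stand lowest among the members, all right of the line, and left of it the changes run from -0.78 (Cyp2s1) to 0.38 (Cyp2a3).

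The flavin-containing monooxygenases held the gene that passed. Fmo4, a member of the family whose substrates are little known, had log2 levels of 7.69, 7.61 and 7.71 on the DJB arrays, against 8.74, 8.59 and 8.79 on the sham arrays. Both groups were tight, with SDs of 0.05 in DJB and 0.10 in sham (n = 3 each), and the gap between them was many times either SD. The change was -1.03 ± 0.10 (SE), with a limma adjusted p of 0.00184. It stayed past the threshold whichever array was left out, with changes from -1.09 to -0.99.

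Fmo1, which oxygenates many amine drugs, had levels of 4.93, 4.71 and 5.0 in DJB rats and 5.17, 5.93 and 5.68 in sham rats. Its groups did not overlap either, but all values lay under 6, and the change of -0.71 ± 0.18 (SE, n = 3 per group) missed the threshold (limma adjusted p = 0.134). Without sham 1, its lowest sham array, the change was -0.93 and passed (limma adjusted p = 0.0345). Without sham 2, its highest, the change was -0.545 and did not pass (limma adjusted p = 0.268). In RefSeq's order of protein-coding genes in the rat assembly GRCr8, Fmo4, Fmo1 and Fmo2 follow one another. Fmo2, the form best known from lung, differed by -0.14 ± 0.11 with overlapping groups, so that the lower values covered the first and second genes of that run and were not seen in the third at this precision.

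Fmo5, which lies elsewhere and is known from liver and gut for inserting oxygen beside carbonyl groups, had levels of 7.96, 8.09 and 7.68 in DJB rats and 7.58, 7.89 and 7.99 in sham rats. The groups overlapped, and the 95% interval of the change ran from -0.23 to 0.41. The difference between the Fmo5 and Fmo4 rows on each array was 0.24 ± 0.26 in DJB and -0.89 ± 0.24 in sham (SD, n = 3 each), with no overlap (exact permutation p = 0.1, two-sided). Fmo9 differed by 0.10 ± 0.13 at a mean of 4.20.

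Cyp2b1 and Cyp2b2 are the classical phenobarbital-inducible P450 genes of rat liver, induced there through the receptor CAR, the product of Nr1i3. They are near copies, and their promoters are shown because the pair had the largest differences of the members and the sham arrays stood in the same order for both. Over the 250 bases before each gene's start (RefSeq, GRCr8, both on the plus strand, at chr1:90645869-90646118 for Cyp2b1 and chr1:90722031-90722280 for Cyp2b2), 225 of 233 aligned bases were identical (96.6%), with 8 mismatches, shown in capitals, and 0 gaps.
Cyp2b1: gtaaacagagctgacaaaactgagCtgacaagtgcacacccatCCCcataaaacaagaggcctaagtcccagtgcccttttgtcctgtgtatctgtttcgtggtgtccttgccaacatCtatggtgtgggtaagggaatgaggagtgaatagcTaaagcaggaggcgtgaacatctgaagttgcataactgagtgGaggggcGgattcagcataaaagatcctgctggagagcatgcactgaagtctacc
Cyp2b2: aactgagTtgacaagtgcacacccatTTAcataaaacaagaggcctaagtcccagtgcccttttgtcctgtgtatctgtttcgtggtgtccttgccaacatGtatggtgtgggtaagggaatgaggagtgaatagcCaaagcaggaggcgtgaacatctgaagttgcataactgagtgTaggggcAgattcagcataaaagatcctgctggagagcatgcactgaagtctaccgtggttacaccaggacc
Of the 66 promoter pairs compared within subfamilies, the only one more alike was Cyp2d3 with Cyp2d5 (97.2%). These bases lie before the transcript and say nothing of the probes, whose sequences were not analysed here, so signal shared between the Cyp2b1 and Cyp2b2 rows was not tested. Bases further upstream of the 2 genes were not compared.

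Cyp2b1 had log2 levels of 6.05, 6.07 and 5.03 on the DJB arrays, against 6.38, 9.29 and 8.35 on the sham arrays. Sham 2 and sham 3 were far above every DJB array, and sham 1 was only just above the highest of them. The change was -2.29 ± 0.62 (SE), the largest difference of any member in size, with a limma adjusted p of 0.155. Cyp2b2 had 5.30, 5.65 and 5.12 in DJB rats and 5.91, 7.98 and 6.84 in sham rats, a change of -1.56 ± 0.42 (adjusted p = 0.154). The sham arrays stood in the same order for both genes. Without sham 1 both passed, at -3.10 ± 0.35 (adjusted p = 0.0116) for Cyp2b1 and -2.06 ± 0.30 (adjusted p = 0.0304) for Cyp2b2, while without sham 2 the changes were -1.64 and -1.02 and neither passed.

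The other Cyp2b rows were dim, with means from 3.35 to 4.97, and differed by at most 0.17 in size: Cyp2b3 by -0.11, Cyp2b12 by 0.17, Cyp2b15 by -0.12 and Cyp2b21 by 0.03. Cyp2b3 is the Cyp gene that follows Cyp2b2 on the chromosome, and Cyp2s1 is the protein-coding gene just before Cyp2b1. Cyp2s1, a P450 of epithelia outside the liver, had 5.44, 5.28 and 5.42 in DJB rats and 6.04, 6.70 and 5.72 in sham rats. Its groups did not overlap, the change was -0.78 ± 0.21 (SE, n = 3 per group; limma adjusted p = 0.159), and without sham 2 it was -0.50. The pseudogene Cyp2s1-ps1 differed by -0.08 ± 0.12.

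The receptor gene Nr1i3 fell by 0.98 ± 0.18 (SE; limma adjusted p = 0.0497). Its levels were 7.35, 6.80 and 6.80 in DJB rats and 7.76, 7.88 and 8.25 in sham rats, with no overlap. Sham 1 was the lowest sham array for Nr1i3 as for Cyp2b1 and Cyp2b2, while the highest was sham 3 for Nr1i3 and sham 2 for both Cyp2b genes, and a link between the levels was not tested. The Nr1i3 call ended when all rows of the table were adjusted together (limma adjusted p = 0.0977). It also ended with the replicate number as a block in the fit (0.143), and with DJB 2, DJB 3 or any 1 sham array left out (at most 0.174). The related receptor gene Nr1i2, which encodes PXR, differed by -0.06 ± 0.15.

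Liver cells are where Cyp2b1 is best known, and the marker list for hepatocytes was read beside these genes. Of its 8 genes, 7 had a mean under 6, 0 passed the test, and the list's mean level was 5.46, 5.6 and 5.53 in DJB rats and 5.46, 6.0 and 5.66 in sham rats. The exception in level was Cps1, a urea cycle enzyme that small intestine makes too. Albumin, Alb, had 3.85, 4.90 and 4.58 in DJB rats and 4.34, 6.85 and 5.73 in sham rats, so that sham 2 was the highest array for Alb as well as for both Cyp2b genes. Alb had the largest difference of the 8, whose changes ran from -1.20 to 0.26 with a median of -0.08, and sham 2 was the highest sham array for 5 of them. The part of this in the Cyp2b difference was not tested.

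In family Cyp4, Cyp4b1, which hydroxylates medium-chain fatty acids and activates some plant toxins, had 8.90, 8.87 and 8.62 in DJB rats and 9.29, 10.47 and 11.12 in sham rats. The DJB arrays were close together (SD 0.15) and the sham arrays far apart (SD 0.93), with sham 1 the lowest of them. The change was -1.50 ± 0.37 (SE, n = 3 per group; limma adjusted p = 0.131). Without sham 1 it was -2.0 ± 0.19 and passed (adjusted p = 0.00508), and it was -1.08 without sham 3.

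The chromosomal neighbours of Cyp4b1 are Cyp4a1 and, beyond it, Cyp4a3, omega-hydroxylases of fatty acids that the receptor PPAR alpha induces in rat liver. Cyp4a1 had 5.31, 5.22 and 5.53 in DJB rats and 5.82, 5.57 and 6.22 in sham rats, a change of -0.52 ± 0.16. Cyp4a3 had 5.14, 5.53 and 5.38 in DJB rats and 5.57, 5.61 and 5.98 in sham rats, a change of -0.37 ± 0.14. Neither pair of groups overlapped, both genes lay under 6 on average and neither passed (limma adjusted p = 0.203 and 0.289). The dim Cyp4a8 (mean 4.25) differed by -0.12 and Cyp4x1 (mean 4.24), beside it on the chromosome, by 0.20, each with overlapping groups.

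The Cyp4f genes, which hydroxylate leukotrienes, arachidonic acid and long fatty acid chains, went in both directions. Cyp4f1 had 10.69, 10.46 and 9.70 in DJB rats, against 10.94, 11.05 and 11.14 in sham rats, a change of -0.76 ± 0.22 (SE; limma adjusted p = 0.176). Here the sham arrays were tight and DJB 3 lay well below the rest. Without DJB 3 the change was -0.47.

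Cyp4f40 had 9.49, 9.84 and 9.39 in DJB rats, against 8.95, 9.29 and 8.71 in sham rats, a change of 0.60 ± 0.17 (SE; limma adjusted p = 0.171). Its lowest DJB array was just above its highest sham array. The difference between the Cyp4f40 and Cyp4f1 rows on each array was -1.20, -0.61 and -0.31 in DJB and -1.99, -1.76 and -2.43 in sham, with no overlap (exact permutation p = 0.1, two-sided). The rest of the subfamily was flat at this precision: Cyp4f5 differed by -0.06 (95% interval -0.32 to 0.20), Cyp4f6, the next gene to Cyp4f1, by -0.10 (-0.40 to 0.20), and the dim Cyp4f4 and Cyp4f18 by 0.20 and 0.11. Cyp4v3, a fatty acid hydroxylase outside this subfamily, differed by 0.10 (-0.13 to 0.33).

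The Cyp2j genes make epoxides from arachidonic acid. Cyp2j4, known from rat small intestine, had 10.62, 10.44 and 9.54 in DJB rats, against 10.66, 11.20 and 11.21 in sham rats. DJB 1 and sham 1 nearly met, and the change of -0.82 ± 0.27 (SE; limma adjusted p = 0.215) was -0.49 without DJB 3. Its chromosomal neighbour Cyp2j3 had 10.18, 9.75 and 9.45 in DJB rats and 9.39, 9.93 and 9.94 in sham rats, a change of 0.04 with a 95% interval of -0.42 to 0.50. The difference between the Cyp2j3 and Cyp2j4 rows was -0.44, -0.69 and -0.09 in DJB and -1.27, -1.27 and -1.27 in sham, again with no overlap (exact permutation p = 0.1, two-sided). For the remaining pair examined, Cyp2b1 minus Cyp2b2, the differences overlapped, at 0.75, 0.42 and -0.08 in DJB and 0.47, 1.31 and 1.51 in sham (exact permutation p = 0.2, two-sided). All 4 pairs were picked after their values were seen. Cyp2j10, with a mean of 5.02, differed by 0.07.

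**Figure D3:**
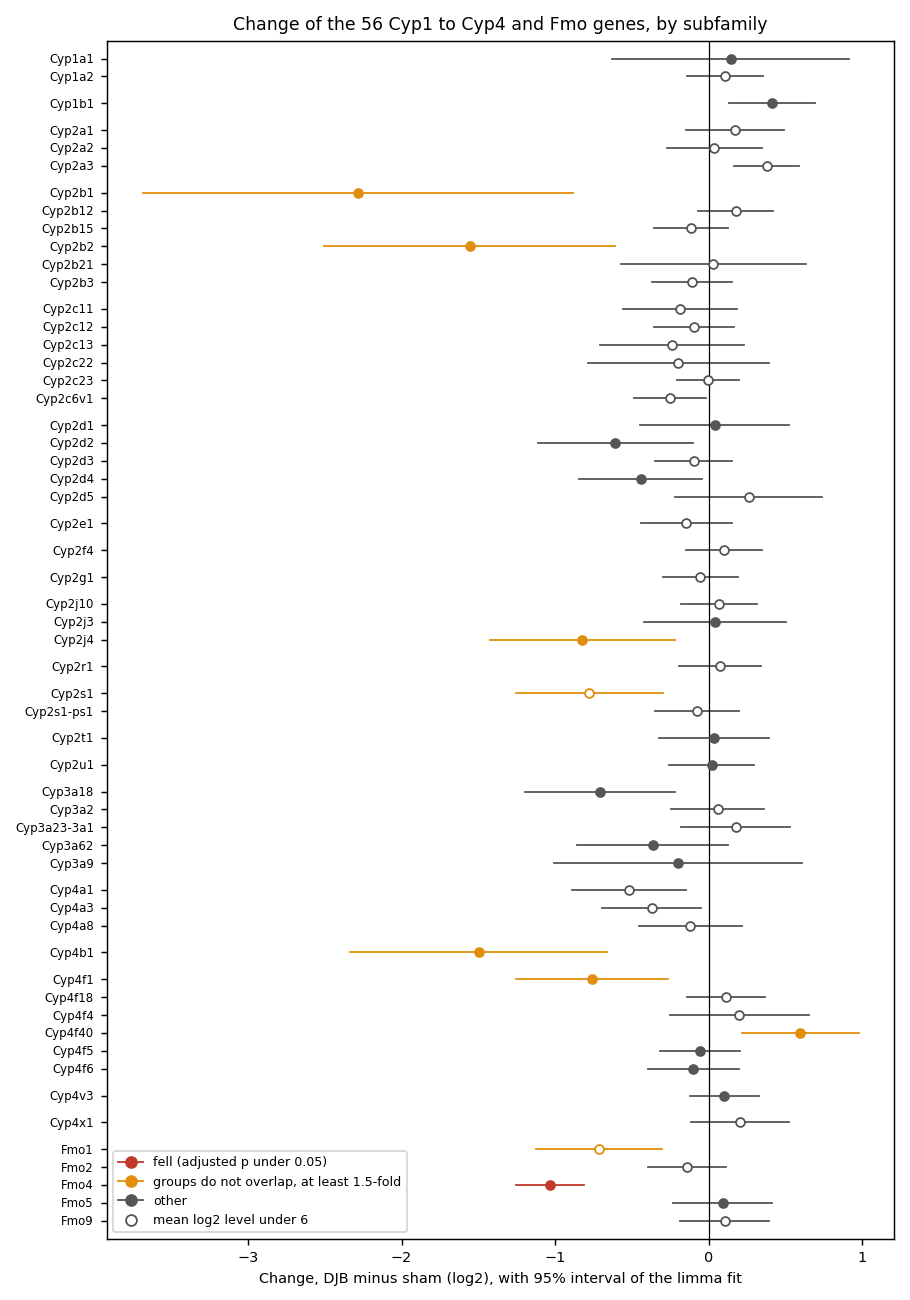
Log2 change, DJB minus sham, of each of the 56 members with the 95% interval of the limma fit, in rows by subfamily. Red marks Fmo4, which fell, orange the 8 others whose groups did not overlap and differed at least 1.5-fold, and open points a mean log2 level under 6. The widest interval is that of Cyp2b1, from -3.69 to -0.89.

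The Cyp3a enzymes are the main drug-oxidising P450s of the gut, and none of the 5 rows passed. Cyp3a18 had 9.96, 9.51 and 9.17 in DJB rats and 9.88, 10.36 and 10.52 in sham rats, a change of -0.71 ± 0.22 (SE, n = 3 per group; limma adjusted p = 0.191). Its groups overlapped only because DJB 1 exceeded sham 1. Cyp3a62, described as an intestinal form in rats, had 9.85, 9.81 and 9.56 in DJB rats and 9.54, 10.28 and 10.50 in sham rats, and Cyp3a9 had 10.50, 10.65 and 9.91 in DJB rats and 9.61, 11.01 and 11.03 in sham rats. In both, sham 1 was the lowest array of all 6 while sham 2 and sham 3 were higher than every DJB array, and the 95% intervals of the change included 0 (-0.86 to 0.13 and -1.01 to 0.60). The sign of the Cyp3a9 difference turned when DJB 3, sham 2 or sham 3 was left out. Cyp3a2 and Cyp3a23-3a1, forms of rat liver, lay at means of 3.42 and 3.13.

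Among the Cyp2d genes, which oxidise many amine drugs, Cyp2d4 had 9.10, 8.93 and 8.64 in DJB rats and 9.08, 9.21 and 9.71 in sham rats, a change of -0.44 ± 0.18. Cyp2d2 had 6.30, 5.98 and 6.01 in DJB rats and 6.26, 6.60 and 7.25 in sham rats, a change of -0.61 ± 0.22. In each gene 1 DJB array reached just past the lowest sham array, and neither passed (limma adjusted p = 0.306 and 0.264). Cyp2d1 differed by 0.04 with an interval of -0.45 to 0.53. The dim Cyp2d3 and Cyp2d5 differed by -0.10 and 0.26. The promoters of Cyp2d1, Cyp2d3 and Cyp2d5 were 91.9% to 97.2% identical where they aligned.

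The Cyp1 genes, best known as targets of the aryl hydrocarbon receptor that senses dioxin-like and plant compounds, did not pass. Cyp1a1 had 7.35, 6.37 and 7.64 in DJB rats and 6.69, 6.62 and 7.61 in sham rats. Each group held both a high and a low rat, and the interval of the change, -0.63 to 0.92, was wide. Cyp1b1, which oxidises estradiol and procarcinogens, had 6.55, 6.85 and 6.46 in DJB rats and 6.27, 6.07 and 6.29 in sham rats, a change of 0.41 ± 0.12 with no overlap (limma adjusted p = 0.191). Cyp1a2, a liver form, differed by 0.10 at a mean of 5.16.

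The remaining members were mostly dim and flat. All 6 Cyp2c rows, among them the sex-dependent liver forms Cyp2c11, Cyp2c12 and Cyp2c13, had means between 2.90 and 5.52 and differences between -0.25 and -0.01. Cyp2c6v1 was the only one of them without overlap, at 3.54, 3.43 and 3.41 in DJB rats and 3.56, 3.80 and 3.77 in sham rats. The 3 Cyp2a rows lay between 3.24 and 5.12, and Cyp2a3, a form of the nasal lining, was without overlap at 4.60, 4.45 and 4.43 in DJB rats and 4.09, 4.11 and 4.14 in sham rats. Cyp2e1, the ethanol-oxidising form, differed by -0.15 at a mean of 4.19, Cyp2f4 by 0.10, Cyp2g1 by -0.05 and Cyp2r1, a vitamin D 25-hydroxylase, by 0.07, all under 6. Of the brighter rows, Cyp2t1 differed by 0.04 (95% interval -0.32 to 0.40) and the fatty acid hydroxylase Cyp2u1 by 0.02 (-0.26 to 0.30). The sign of the Cyp2u1 difference turned under both other scalings.

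Across the 22 brighter members the rats of a group differed in a shared way. DJB 3 was the lowest DJB array in 18 of them, where it was the lowest in 42.6% of all genes at that level. Sham 1 was the lowest sham array in 16 and the highest in 0, where it was the lowest in 32.8% of all such genes, and sham 3 was the highest in 18, against 43.2%. The members' mean level relative to each gene's own mean was -0.04, -0.14 and -0.44 on the DJB arrays and -0.17, 0.34 and 0.44 on the sham arrays, so that sham 1 lay below DJB 2 and DJB 1. Without sham 1, 5 members fell in place of 1, namely Fmo4, Cyp2b1, Cyp2b2, Cyp4b1 and Fmo1, and with any other array left out the only member called was Fmo4. The array medians over all rows lay between 6.08 and 6.19, with sham 1 at 6.09 and DJB 1 the highest at 6.19. The 8 enterocyte markers had mean levels of 12.46, 12.58 and 12.40 in DJB rats and 12.05, 12.15 and 12.50 in sham rats, with 1 riser, the bile acid transporter gene Slc10a2. Gene by gene, DJB 3 was the lowest DJB array for 1 of the 8, Alpi, a brush border phosphatase gene that had 10.25, 10.57 and 9.27 in DJB rats and 9.79, 9.23 and 11.51 in sham rats, and the highest for 4. DJB 1 was the lowest DJB array for 6 of the 8 markers, while it was the lowest for 0 and the highest for 12 of the 22 brighter members. Sham 1 was the lowest sham array for 6 of the 8, as it was for most members, and sham 3 the highest for 6. The part of this in the spread of the members was not tested. Vil1, a microvillus gene, had 12.52, 12.53 and 12.65 in DJB rats and 12.48, 12.64 and 12.60 in sham rats, and differed between groups by less than either group's range.

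**Figure D4:**
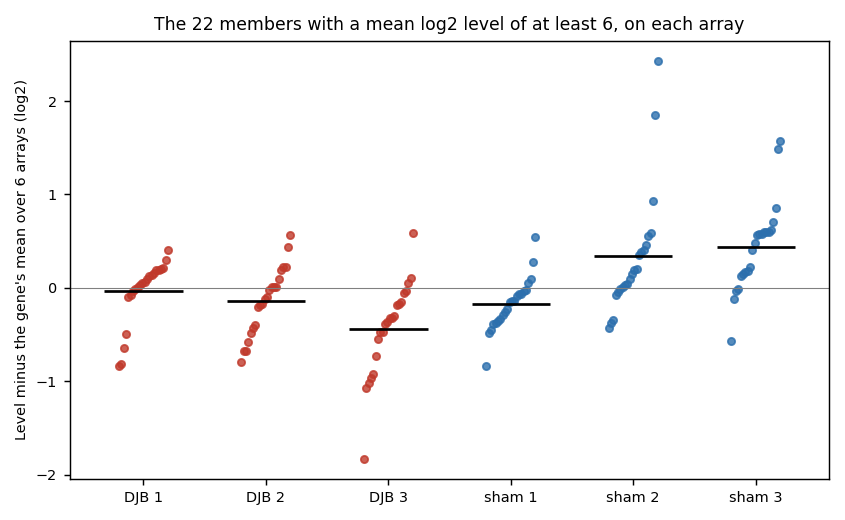
Log2 level of the 22 members with a mean of at least 6, minus each gene's own mean over the 6 arrays, by array, with a point per gene and a line at the mean. The means run from -0.44 on DJB 3 to 0.44 on sham 3, and sham 1 at -0.17 lies among the DJB arrays.

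Other cell types of the gut wall were checked by their markers. No marker of fibroblasts (5 measured), macrophages (5), smooth muscle (6), endothelium (4), mast cells (4), B cells (3), adipocytes (5), goblet cells (3) or exocrine pancreas (6) passed the test. Fibroblast markers had a mean level of 9.57, 9.37 and 8.99 in DJB rats and 9.22, 8.89 and 8.91 in sham rats. Sham 1 was the highest sham array for all 6 smooth muscle and all 5 fibroblast markers, and for 0 of the 22 brighter members. It was the lowest for 4 of the 6 exocrine pancreas and 3 of the 5 adipocyte markers. DJB 3 was the lowest DJB array for all 6 smooth muscle, all 5 fibroblast and all 4 endothelium markers. It was the highest for 4 of the 5 macrophage markers. Of all genes with a mean of at least 6, sham 1 was highest in 29.6% and DJB 3 lowest in 42.6%. Of the 3 goblet cell markers 2 were lower with no overlap, where 6.56% of all genes were. Macrophage markers had 7.92, 7.63 and 7.89 in DJB rats and 7.49, 7.39 and 7.46 in sham rats, and 4 of the 5 were higher with no overlap, where 14.5% of all genes were. The part of these cell types in the lower P450 values and in the spread of the members was not tested.

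Around the P450 enzymes themselves little passed. Of 13 measured genes for electron supply and haem synthesis, 0 passed in either direction, with a median change of -0.01. The reductase gene Por had 9.55, 9.52 and 9.44 in DJB rats and 9.47, 9.86 and 10.05 in sham rats, and sham 1 was again the low sham array. Alas1, the enzyme that controls haem synthesis, had 10.77, 10.81 and 10.77 in DJB rats and 10.15, 10.31 and 10.55 in sham rats, a difference of 0.45 ± 0.12 in the other direction from the Cyp genes that were lower, without passing (limma adjusted p = 0.143).

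Of 17 measured regulators of the P450 genes, 1 fell, Nr1i3, and 1 rose, the FXR gene Nr1h4, whose product is a receptor for bile acids, by 0.98 ± 0.15 (limma adjusted p = 0.0275). With sham 1, sham 2 or sham 3 left out Nr1h4 missed the threshold, at an adjusted p of 0.0931 to 0.113. It also missed it with the replicate number as a block (limma adjusted p = 0.0749) and with all rows adjusted together (0.0631). The median of the 17 was -0.06. Ahr differed by 0.11 ± 0.12, Ppara by -0.01 ± 0.20 and the enterocyte and liver factor gene Hnf4a by 0.15 ± 0.09, and none of these passed. Among non-P450 targets of the aryl hydrocarbon receptor, 0 of 5 passed, and among those of PPAR alpha, 0 of 12. The 5 aryl hydrocarbon receptor targets had 2 higher and 0 lower without overlap. The 12 PPAR alpha targets had a median change of 0, with 3 higher and 1 lower without overlap. Of all genes, 14.5% were higher and 6.56% lower without overlap. Of 19 P450 genes outside families 1 to 4, 1 rose, Cyp51, the lanosterol demethylase of cholesterol synthesis (1.18 ± 0.10; limma adjusted p = 0.00114), and 0 fell.

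The promoters were searched for short recognition sequences of these regulators, as a description of the letters present. The table of RefSeq promoters (GRCr8) held 48 of the 56 members and 27457 promoters in all. The members it lacked included Fmo4 and Cyp1a1. The 250 bases before each start were read on both strands, and sites further upstream were not searched. The hexamer AGGTCA, the unit that nuclear receptors such as CAR, PXR and FXR recognise in pairs, was in 33.3% of the member promoters and 13.7% of all promoters. Of the members with the hexamer, only Cyp2u1, Cyp4f40 and Fmo5 had a mean log2 level of at least 6. Similar promoters, such as those of Cyp3a2 and Cyp3a23-3a1 (87.3% identical where they aligned), were counted separately. The core of the aryl hydrocarbon receptor's site, TNGCGTG, was in 1 of the member promoters searched, that of Cyp1b1, and in 4.21% of all. The promoter of Cyp1a1 was not searched. The TATA box letters TATAAA were in 29.2% of the member promoters and 13.2% of all.

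The promoters searched included those of genes whose groups did not overlap and differed at least 1.5-fold. Among these, the hexamer was found in Cyp2s1, which was lower, and in Cyp4f40, which was higher. It was not found in Cyp2b1, Cyp2b2, Cyp2j4, Cyp4f1 or Fmo1, which were lower. The promoters of Cyp2s1 and Cyp4f40 are shown with the hexamer in capitals. It reads TGACCT in them, since both copies lie on the opposite strand, 162 and 98 bases before the start. The Cyp2s1 promoter lies at chr1:90453074-90453323 on the minus strand and that of Cyp4f40 at chr7:12342340-12342589 on the plus strand (GRCr8).
Cyp2s1: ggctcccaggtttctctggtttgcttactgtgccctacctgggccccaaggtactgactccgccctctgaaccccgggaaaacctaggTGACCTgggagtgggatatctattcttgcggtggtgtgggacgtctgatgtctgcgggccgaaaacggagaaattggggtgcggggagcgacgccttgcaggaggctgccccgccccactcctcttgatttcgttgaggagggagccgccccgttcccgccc
Cyp4f40: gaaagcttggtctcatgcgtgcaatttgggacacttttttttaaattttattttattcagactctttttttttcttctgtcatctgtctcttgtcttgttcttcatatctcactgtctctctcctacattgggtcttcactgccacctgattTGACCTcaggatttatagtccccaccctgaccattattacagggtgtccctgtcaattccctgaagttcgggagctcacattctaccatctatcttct
The hexamer was present beside differences of both signs.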

How the data were processed

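The deposited table holds log2 expression values, 29214 rows by 6 arrays, which the authors made with RMA, per the submitters' processing notes. RMA removes background, gives the probes of all arrays 1 distribution and sums up the probes of a row. A shift common to most genes would therefore be largely removed. The row values still differed a little, with a median of 6.19 on DJB 1 and 6.08 to 6.11 on the other arrays. DJB 1 was the highest DJB array in 58.1% of genes with a mean of at least 6. The median change of all genes was 0.05, and 0.013 after repeated quantile normalisation. The values were used as deposited. Rows were named through the array platform's annotation, in which 15310 rows carry 1 symbol, 323 several and 13581 none. Rows with 1 symbol were used, the brightest row per gene, with no filter on dim rows. All 56 members were found in RefSeq (GRCr8) under the same symbol. No coordinates are given for the rows, since no genome build is named for them in the sources used here.

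DJB and sham were compared with limma 3.58.1 in R 4.3.3 (lmFit, eBayes), checked on simulated data. Promoters were aligned with Biopython 1.88 with free end gaps, in Python 3.11.15, and matplotlib 3.10.9 drew the figures. The labels call the rats biological replicates.

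Members, lists, tests and the naming rule were chosen with earlier results of these data known. Members named were those past the adjusted threshold, those without overlap and at least 1.5-fold apart, the brightest of each subfamily and the 3 largest differences among the rest. The other members were named after their values were seen, as were Alb, Cps1, Vil1, Alpi and Alas1. Of the lists, genes past the threshold and Por, Ahr, Nr1i2, Nr1i3, Ppara and Hnf4a were named. Alternatives were a replicate block, repeated quantile normalisation, median centring, dim genes left out in 2 ways, an eBayes trend with a robust prior, all rows adjusted together, the mean of a gene's rows, and each array left out.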

Additional observations from a re-analysis of the deposited data

How the results depend on the processing

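The call of Fmo4 held under every alternative run (adjusted p from 9.47e-05 to 0.0214, the highest with the replicate block), and 0 members rose under any of them. The count of members that fell ran from 1 to 5 when 1 array was left out, with 5 without sham 1, where 32 of all genes fell. Members at least 1.5-fold higher without overlap were 1, but 0 after repeated quantile normalisation and 0 with centred arrays, and 0 to 1 with an array left out (0 without DJB 2, sham 1 or sham 3). The lower ones were 8, with 7 to 12 when an array was left out. Groups of 3 and 2 arrays separate more easily than 2 groups of 3. The share of all genes was not counted for these settings, so 7 to 12 cannot be read against it. Over all genes, 55 fell and 57 rose. With the replicate block these counts were 23 and 27, with dim genes left out 96 and 129 (under the median of all rows) or 92 and 127 (under 6), with the trend and robust prior 124 and 189, and with all rows adjusted together 22 and 29. With 1 array left out, 10 to 70 genes fell and 22 to 38 rose.

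The deviations of rats with the same number had correlations of 0.01, -0.12 and -0.15 over genes. For DJB and sham rats with different numbers they ran from -0.06 to 0.17. With 3 rats per group the deviations constrain one another, so these values cannot decide whether the numbers pair the samples. The replicate block left the members called as they were and ended the calls of Nr1i3 (adjusted p = 0.143) and Nr1h4 (adjusted p = 0.0749), as did adjusting all rows together (0.0977 and 0.0631). The direction turned only for named genes that passed no test. Cyp2u1 was -0.009 after repeated quantile normalisation and -0.012 with centred arrays. With 1 array left out, the changes ran from -0.116 to 0.517 for Cyp1a1, -0.452 to 0.108 for Cyp2c22, -0.114 to 0.042 for Cyp2g1, -0.045 to 0.143 for Cyp2r1, -0.141 to 0.157 for Cyp2t1, -0.072 to 0.107 for Cyp2u1, -0.671 to 0.038 for Cyp3a9, -0.15 to 0.091 for Nr1i2 and -0.209 to 0.15 for Ppara. The cause was not tested. Dim rows limit what can be seen for 34 of the 56 members.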
